A study of Mus musculus with 12 samples.

Results

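The genes examined here are the nuclear-encoded genes of the mitochondrial respiratory chain and ATP synthase. They were chosen by name: protein-coding genes whose GENCODE mouse symbol starts with Ndufa, Ndufb, Ndufc, Ndufs, Ndufv, Uqcr or Atp5, the genes Sdha to Sdhd, Cyc1 and Cycs, and the families Cox4 to Cox8 with a suffix. Of 55416 genes in the count files, 118 had such a name, 19 of them were pseudogenes by biotype or name and were left out, and 99 remained. They were 38 genes of complex I and 8 of its assembly factors (Ndufaf), 4 of complex II, 9 of complex III, 20 of complex IV, 18 of complex V (ATP synthase) and its inhibitor Atp5if1, and cytochrome c (Cycs). The assembly factors, Atp5if1 and Cycs aside, 89 encode structural subunits.

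Complexes I and II pass electrons from NADH and succinate to ubiquinone, complex III passes them on to cytochrome c, and complex IV hands them to oxygen. Complexes I, III and IV pump protons out of the matrix, and ATP synthase lets them flow back through a ring of c subunits to make ATP. Hair cells of the cochlea turn sound into electrical signals and spend much energy on ion transport. Inner hair cells (IHCs) are the main sensory receptors, while outer hair cells (OHCs) amplify sound by changing length.

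The data were bulk RNA-seq of 12 libraries from the mouse organ of Corti at postnatal day 0, 6 of IHCs and 6 of OHCs, all labelled wild type (WT). Each library held cells pooled from several pups of both sexes. Cells were sorted from pups carrying Atoh1-GFP, a fusion at the gene of a hair cell transcription factor, together with Insm1-GFP-Cre and a Cre-dependent CAG-tdTomato reporter at the Rosa26 locus (R26-TdTomato): IHCs were collected on GFP alone, and OHCs on GFP with tdTomato, since Insm1 is an early OHC gene. The reporter stays on in any cell that has once expressed the Cre.

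Gene counts per library were 29564827 to 44017309. The 99 genes held 0.448% to 0.708% of them. Levels are given as CPM, counts per 1000000 on the TMM-normalized library size. IHC replicate 1 stood apart: 17.7% of its gene counts were ribosomal RNA and 42.2% came from the mitochondrial chromosome, against 1.41% to 6.30% and 19.6% to 40.0% in the other 11 libraries, which left 12598465 counts on other genes. The marker genes matched the labels, with 4 of 4 IHC markers called higher in IHCs and 4 of 5 OHC markers called higher in OHCs. Markers of other cell types were not equal between the groups. Summed endothelial markers (8 genes) were 0.136 to 13.0 CPM in IHCs and 19.6 to 229.9 CPM in OHCs, with Cldn5, Ptprb and Adgrf5 at 0 in all 6 IHC libraries. The 6 supporting cell markers did not move one way. Prox1, also known in young OHCs, was 6.61 to 79.7 CPM in IHCs and 161.6 to 254.8 CPM in OHCs, and Sox2 was 30.3 to 101.9 CPM in IHCs and 14.9 to 37.5 CPM in OHCs, each of them called. Fgfr3, which was not called, was 73.3 CPM in IHC replicate 6, 1.44 to 11.8 CPM in the other IHC libraries and 67.8 to 77.8 CPM in OHCs. The highest IHC value of Prox1 was also that of IHC replicate 6, with 6.61 to 32.5 CPM in the other IHC libraries. The sum of the 6 was 109.0 to 349.0 CPM in IHCs and 282.6 to 485.7 CPM in OHCs, while without Prox1 and Fgfr3, left out after their values were seen, it was 96.0 to 266.4 CPM and 50.9 to 177.3 CPM. Summed muscle markers (8 genes, mostly Actc1) were 6.28 to 15.9 CPM in IHCs and 0.431 to 22.0 CPM in OHCs, and erythroid markers (6 genes) did not exceed 3.20 CPM. Macrophage markers (5 genes) were 1.75 to 19.6 CPM in IHCs and 0.0872 to 5.47 CPM in OHCs, pericyte markers (8 genes) 9.94 to 45.6 CPM and 17.7 to 33.7 CPM, and glial markers (3 genes) 7.85 to 62.4 CPM and 2.68 to 21.5 CPM. In pooled cells, a smaller number of cells of a type and less RNA per cell cannot be told apart, and the part of these cells in the results that follow was not tested.

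Few respiratory chain genes passed the test of a difference between IHCs and OHCs. Of the 99 genes, 91 passed the filter on low counts and were tested, and the other 8 are described with their paralogs. Atp5mc1, which encodes the proton-carrying c subunit of ATP synthase, and Ndufs7, an iron-sulfur subunit of complex I, were higher in IHCs at a false discovery rate (FDR) under 0.05 by the quasi-likelihood test of edgeR with Benjamini-Hochberg adjustment over 13269 genes. No gene was called higher in OHCs. Over all genes tested, 3.81% were called higher in IHCs and 2.44% higher in OHCs, 6.26% in all, while 2 of 91 is 2.20%. At an unadjusted p under 0.05, 12 of the 91 genes (13.2%) passed, beside 21.8% of all genes. For 1 gene, Ndufs7, the 6 libraries of one cell type all lay above those of the other, beside 4.6% of all genes.

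The median log2 fold change (OHC over IHC, positive where OHCs are higher) was -0.20 over the 81 structural subunits tested and -0.04 over all genes tested. Of the 81, 51 had a negative and 30 a positive value. This median rested on IHC replicate 1: without that library it was 0.08, beside 0.00 over all genes. The respiratory chain genes were measured more precisely than most genes, with a median standard error of 0.38 on the log2 scale for structural subunits and 0.56 for all genes, at a median level in the 72.4th percentile of the genes tested. For 23 of the 91 genes the 95% confidence interval of the log2 fold change lay wholly between -1 and 1, while the intervals of the others reached past a 2-fold difference.

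**Figure D1:**
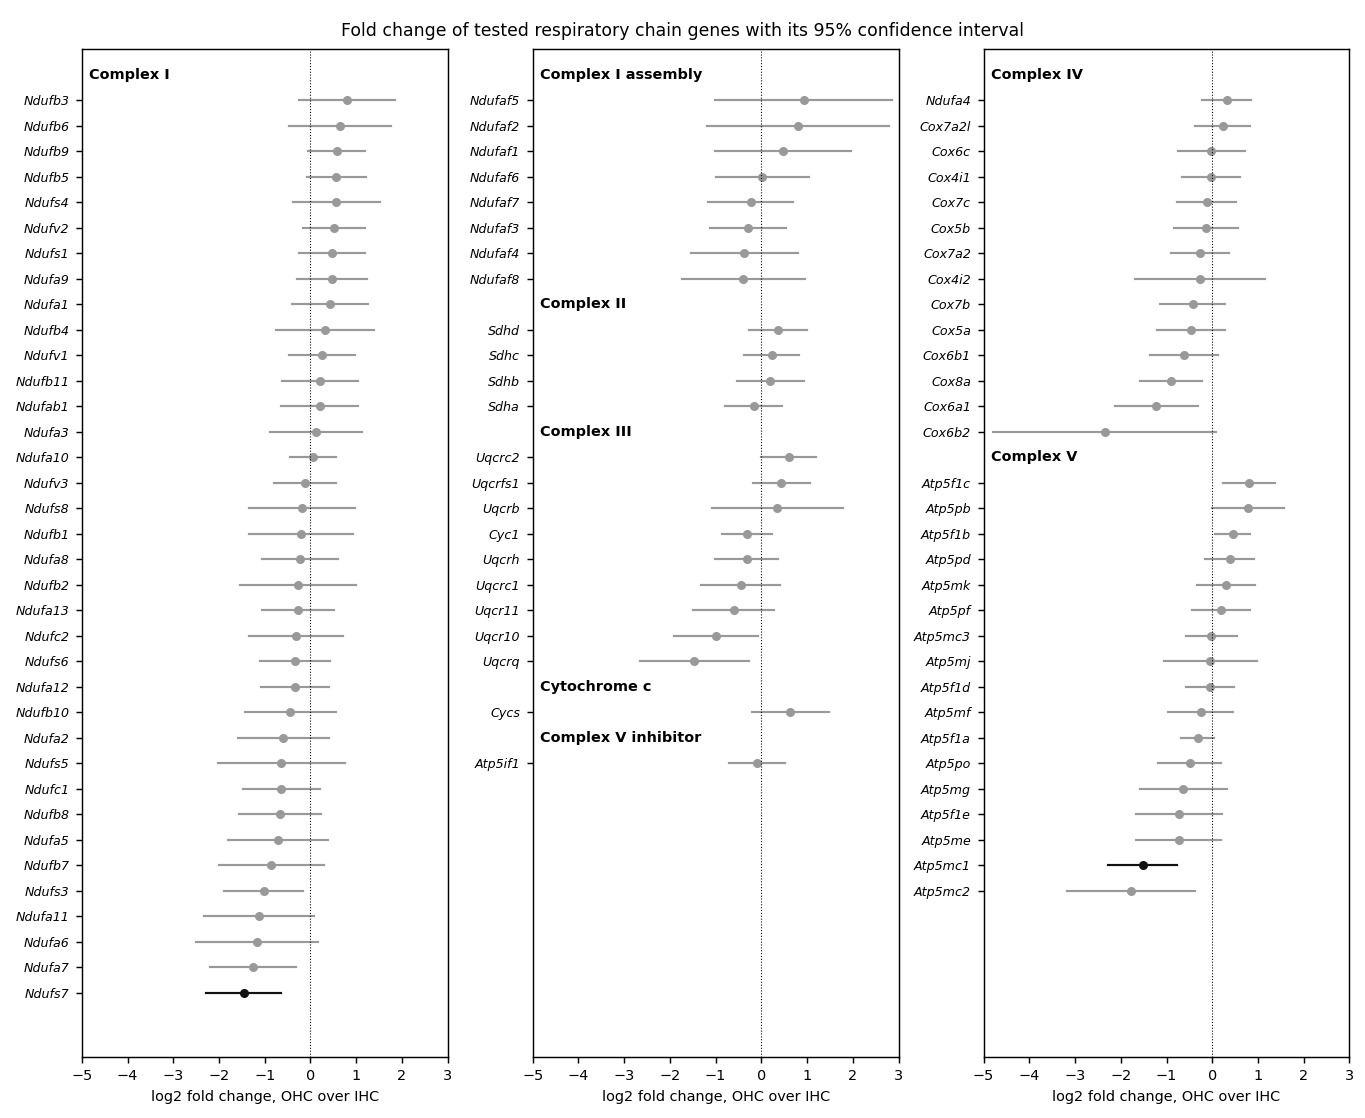
Log2 fold change (OHC over IHC, horizontal axis) of 90 of the 91 tested genes, grouped by complex, with 95% confidence intervals as bars. Black marks the 2 genes called at an FDR under 0.05, Atp5mc1 and Ndufs7, and both lie on the IHC side of the dotted line at 0.

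Atp5mc1 (chromosome 11, 95959678 to 95966757, minus strand, GRCm39) had the strongest evidence of a difference. Its level was 141.8 CPM in the lowest, 222.0 CPM in the median and 670.9 CPM in the highest IHC library, and 57.9, 85.1 and 185.5 CPM in OHCs. The groups overlapped only through OHC replicate 5 (185.5 CPM), which lay above IHC replicates 2 and 4. Its log2 fold change was -1.52 (SE 0.36, 95% confidence interval -2.27 to -0.78, FDR = 0.0137 by edgeR), a level 2.88-fold higher in IHCs. The highest IHC value was that of replicate 1, and without that library the log2 fold change was -1.06 with the gene still called. Atp5mc1 was called under every one of the 8 other settings and in all 12 fits that each left out 1 library. Its whole coding sequence of 408 bases also lies, at 99.8% identity, in the processed pseudogene Gm10039 on chromosome 11 (100252545 to 100252952), so reads that match both places are not unique, and the level is uncertain to that extent. Gm10039 itself had at most 279 counts in a library, with a mean of 7.39 CPM in IHCs (SD 4.07, n = 6) and 2.11 CPM in OHCs (SD 2.28, n = 6).

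Ndufs7 (chromosome 10, 80084941 to 80095049, plus strand) carries the last iron-sulfur cluster before ubiquinone. Its level was 16.1 CPM in the lowest, 28.3 CPM in the median and 39.6 CPM in the highest IHC library, and 6.55, 10.97 and 11.5 CPM in OHCs. The 6 IHC libraries all lay above the 6 OHC libraries. The log2 fold change was -1.46 (SE 0.39, 95% confidence interval -2.28 to -0.63, FDR = 0.0309 by edgeR), a level 2.75-fold higher in IHCs. The call was close to the threshold: without OHC replicate 1, 2, 4 or 6, or without IHC replicate 4, the FDR was 0.0509 to 0.0726 by edgeR, with log2 fold changes of -1.34 to -1.51. With an offset for the GC content of each gene, chosen after seeing the data, the log2 fold change of Ndufs7 was -1.13 (FDR = 0.0948 by edgeR), and with library sizes free of ribosomal and mitochondrial counts and no factors it was -1.33 (FDR = 0.0590 by edgeR). Of its exonic bases, 49.4% overlap Gamt on the opposite strand, which had at most 365 counts in a library, with a mean of 0.949 CPM in IHCs (SD 1.15, n = 6) and 2.30 CPM in OHCs (SD 4.13, n = 6), and whether strand was used in counting is not given in the sources used here.

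The promoter windows of these genes and of Cox6a1, whose window holds both the NRF1 and the ETS letters, are shown because factors such as NRF1, ETS proteins and YY1 are known to bind many promoters of respiratory chain genes. They run from 250 bases before to 50 bases after the start of the RefSeq gene (build GRCm38.p6, which is not the build of the counts), 5′ to 3′ on the strand of the gene, with capitals for the letters searched on both strands: GCGCATGCG for NRF1, CCGGAAG for ETS and AAGATGGC for YY1. They are chr10:80249199-80249498 (plus strand), chr5:115348909-115349208 (minus strand) and chr11:96075582-96075881 (minus strand).
Ndufs7: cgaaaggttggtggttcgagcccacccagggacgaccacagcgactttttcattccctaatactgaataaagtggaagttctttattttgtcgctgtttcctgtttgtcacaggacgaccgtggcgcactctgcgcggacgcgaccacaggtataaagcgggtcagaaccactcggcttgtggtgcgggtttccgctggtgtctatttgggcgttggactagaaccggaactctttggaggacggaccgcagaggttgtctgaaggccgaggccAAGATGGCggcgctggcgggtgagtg
Cox6a1: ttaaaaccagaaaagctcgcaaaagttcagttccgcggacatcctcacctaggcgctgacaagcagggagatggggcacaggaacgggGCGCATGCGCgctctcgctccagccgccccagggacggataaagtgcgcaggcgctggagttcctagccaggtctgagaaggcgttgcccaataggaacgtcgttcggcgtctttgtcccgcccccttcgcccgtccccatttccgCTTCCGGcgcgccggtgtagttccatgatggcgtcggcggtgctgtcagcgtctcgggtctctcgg
Atp5mc1: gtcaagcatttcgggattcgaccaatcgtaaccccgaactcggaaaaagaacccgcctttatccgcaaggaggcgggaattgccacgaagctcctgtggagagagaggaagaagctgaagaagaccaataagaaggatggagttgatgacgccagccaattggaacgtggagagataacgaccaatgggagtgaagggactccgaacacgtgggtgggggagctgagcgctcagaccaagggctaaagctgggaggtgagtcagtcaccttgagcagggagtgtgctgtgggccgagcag
Ndufs7 holds the YY1 letters just after its start, Cox6a1 holds the NRF1 letters on both strands and the ETS letters on the reverse strand, and the Atp5mc1 window holds none of these 3 strings.

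A RefSeq window was matched for 77 of the 99 genes. The NRF1 letters were in 14.3% of them (11 of 77) and in 2.61% of 17492 protein-coding genes, the YY1 letters in 14.3% (11 of 77) and 3.57%, the ETS letters in 23.4% (18 of 77) and 12.9%, and the SP1 letters (GGGCGG) in 45.5% (35 of 77) and 49.2%. The NRF1 strings were in the windows of Cycs, of the ATP synthase genes Atp5mc2, Atp5me and Atp5mg, of the complex I genes Ndufa8 and Ndufa11, of the assembly factors Ndufaf4 and Ndufaf5, of Uqcr11 and Uqcrc1 of complex III and of Cox6a1 of complex IV. These shares describe the letters in the windows and no binding was measured in these libraries.

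Complex I, the largest of the complexes, had 37 of 38 genes tested, 1 called (Ndufs7), and a median log2 fold change of -0.20, with 21 negative and 16 positive values. Ndufs3, a core subunit of the same arm as Ndufs7, was 22.4 to 85.03 CPM in IHCs (median 25.4 CPM) and 10.7 to 24.97 CPM in OHCs (median 17.8 CPM). The log2 fold change was -1.02 (SE 0.42, FDR = 0.156 by edgeR), and 62.9% of its coding sequence has a near-identical copy elsewhere in the genome. The accessory subunit Ndufa7 was 17.5 to 46.5 CPM in IHCs (median 24.7 CPM) and 3.96 to 22.4 CPM in OHCs (median 11.6 CPM), and its log2 fold change of -1.25 (SE 0.45) had an FDR of 0.108 by edgeR and of 0.0179 by DESeq2. By level per kilobase of exon, Ndufc2 was the highest tested gene of complex I (77.8 CPM per kb, mean of 12 libraries) and Ndufb2 the lowest (0.919 CPM per kb). The Ndufc2 mean was raised by IHC replicate 1, with 288.8 CPM against 24.6 to 49.1 CPM in the other IHC libraries and 46.3 to 72.9 CPM in OHCs. The 8 assembly factors gave no call, with log2 fold changes of -0.39 to 0.93 and a median standard error of 0.60.

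**Figure D2:**
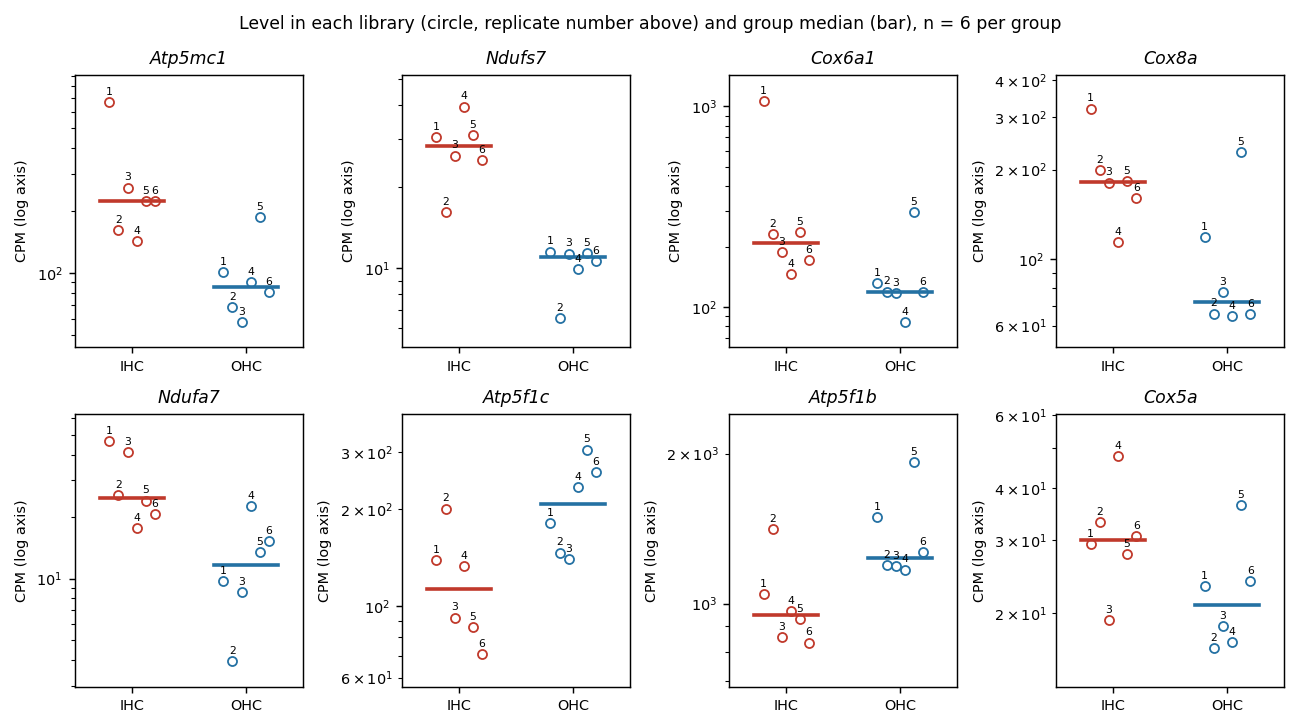
CPM (log axis) of 8 genes in each of the 6 IHC and 6 OHC libraries, with the replicate number above each circle and the group median as a bar. The groups of Ndufs7 do not overlap, those of Atp5mc1 overlap through OHC replicate 5, and IHC replicate 1 is the highest IHC library for Atp5mc1, Cox6a1, Cox8a and Ndufa7.

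Complex II, which also belongs to the citric acid cycle, spanned a small range of fold changes. Its 4 subunits gave log2 fold changes of -0.17 to 0.36 with no call, and for 3 of them the 95% confidence interval lay between -1 and 1. Sdhd, a membrane anchor, was the highest per length (27.3 CPM per kb) and Sdhb, the iron-sulfur subunit, the lowest (3.43 CPM per kb). Sdhd was 30.1 to 99.4 CPM in IHCs and 52.3 to 98.1 CPM in OHCs, and Sdhb 19.3 to 38.4 CPM and 19.6 to 50.1 CPM, so that both overlapped widely.

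Complex III had 9 of 9 genes tested, no call, and a median log2 fold change of -0.32, with 6 negative and 3 positive values. IHC replicate 1 was the highest IHC library by far for Uqcrq, Uqcr10, Uqcr11 and Uqcrc1. Uqcrc1, with the longest coding sequence of this complex, was 200.7 CPM there and 33.2 to 56.0 CPM in the other IHC libraries. For the small subunits Uqcrh (59.3 CPM) and Uqcrb (2.88 CPM), that library lay within the range of the other IHC libraries. Uqcrq was 14.7 to 259.1 CPM in IHCs (median 29.8 CPM) and 14.1 to 40.6 CPM in OHCs (median 23.2 CPM). Its log2 fold change was -1.46 (SE 0.58, FDR = 0.140 by edgeR) and became -0.21 (FDR = 0.808 by edgeR) without IHC replicate 1. Uqcr10 was 28.4 to 127.2 CPM in IHCs (median 38.9 CPM) and 7.38 to 47.2 CPM in OHCs (median 27.4 CPM), and the log2 fold change was -0.998 (SE 0.44, FDR = 0.189 by edgeR) and -0.56 without IHC replicate 1. Uqcrh, the hinge subunit, was the highest per length (33.5 CPM per kb) and Uqcrb the lowest (6.17 CPM per kb), and 88.2% of the coding sequence of Uqcrb has a near-identical copy elsewhere. Cytochrome c, which links complexes III and IV, was 8.39 to 36.7 CPM in IHCs (median 21.8 CPM) and 17.2 to 40.5 CPM in OHCs (median 37.3 CPM). Its log2 fold change was 0.63 (SE 0.40, FDR = 0.382 by edgeR), and all of its coding sequence has copies elsewhere.

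Complex IV had 14 of 20 genes tested, no call, and a median log2 fold change of -0.27, with 12 negative and 2 positive values. Cox6a1 had the highest mean over the 12 libraries per kilobase of exon (339.3 CPM per kb), an order that rested on IHC replicate 1. Without that library its mean was 235.1 CPM per kb and that of Atp5f1b, of complex V, was 259.8 CPM per kb, and by the longest transcript Atp5f1b was the higher with all 12. It was 146.0 to 1058 CPM in IHCs (median 209.2 CPM) and 84.0 to 297.2 CPM in OHCs (median 118.9 CPM). OHC replicate 5 alone kept the groups from separating, and the log2 fold change was -1.22 (SE 0.43, FDR = 0.0999 by edgeR). Without OHC replicate 5 it was -1.57 (FDR = 0.0450 by edgeR), and without IHC replicate 1 it was -0.44 (FDR = 0.386 by edgeR). With no filter on low counts it was -1.22 (FDR = 0.0438 by edgeR), and with GC offsets -0.69 (FDR = 0.259 by edgeR). Cox8a was 114.6 to 320.5 CPM in IHCs (median 181.8 CPM) and 64.6 to 229.4 CPM in OHCs (median 71.7 CPM). Its log2 fold change was -0.90 (SE 0.32, FDR = 0.107 by edgeR), and without OHC replicate 5 it was -1.30 (FDR = 0.00836 by edgeR). Without IHC replicate 1 it was -0.71 (FDR = 0.190 by edgeR), and with GC offsets -0.60 (FDR = 0.257 by edgeR). Cox5a, a subunit on the matrix side, was 19.2 to 47.7 CPM in IHCs (median 29.9 CPM) and 16.5 to 36.4 CPM in OHCs (median 20.9 CPM). The groups overlapped, and the log2 fold change of -0.47 (SE 0.36, 95% confidence interval -1.21 to 0.28, FDR = 0.473 by edgeR) was within the spread of the libraries. Of the exonic bases of Cox5a, 41.4% overlap the noncoding gene Gm26631 on the opposite strand, which had at most 108 counts in a library.

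Complex V had 17 of 18 genes tested, 1 called (Atp5mc1), and a median log2 fold change of -0.06, with 11 negative and 6 positive values. Of the 5 subunits of the catalytic head and its stalk, Atp5f1b and Atp5f1c had positive values, Atp5f1a (-0.32), Atp5f1d (-0.06) and Atp5f1e (-0.72) had negative ones, and none of them was called. Atp5f1b, the catalytic beta subunit, was the highest per length of this complex (257.0 CPM per kb). It was 834.9 to 1408 CPM in IHCs (median 947.7 CPM) and 1169 to 1920 CPM in OHCs (median 1232 CPM), and IHC replicate 2 alone overlapped the OHC libraries. Its log2 fold change was 0.45 (SE 0.18, 95% confidence interval 0.06 to 0.83, FDR = 0.161 by edgeR). Atp5f1c, the gamma subunit that turns within the head, was 71.1 to 200.6 CPM in IHCs (median 112.7 CPM) and 139.7 to 305.9 CPM in OHCs (median 207.7 CPM). The groups overlapped, and its log2 fold change was 0.81 (SE 0.27, FDR = 0.0814 by edgeR). Without IHC replicate 2 it was 1.02 (FDR = 0.0252 by edgeR), and with library sizes free of ribosomal and mitochondrial counts and no factors it was 0.92 (FDR = 0.0475 by edgeR). Without OHC replicate 5 it was 0.67 (FDR = 0.174 by edgeR), and with GC offsets 0.57 (FDR = 0.217 by edgeR). A difference between these genes and those of the c-ring was not tested.

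**Figure D3:**
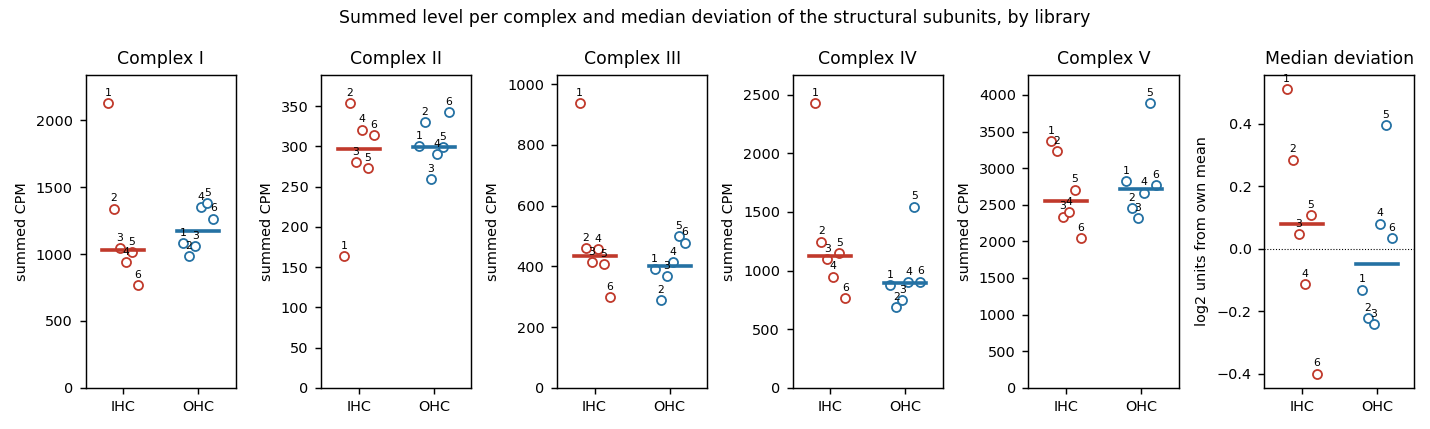
Summed CPM of the tested genes of each complex (axes start at 0) and, at the right, the median over 81 structural subunits of the log2 deviation from each gene's mean, for each library with its replicate number and with group medians as bars. IHC and OHC libraries overlap in every panel, and IHC replicate 1 is far above the other libraries for complexes I, III and IV and below them for complex II.

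Added over the structural subunits tested, the level was 4191 to 9026 CPM in IHCs (median 5362 CPM) and 4742 to 7618 CPM in OHCs (median 5549 CPM). The ranges overlapped for each complex. The sum of complex V was 2049 to 3366 CPM in IHCs and 2314 to 3891 CPM in OHCs, that of complex IV 763.2 to 2428 CPM and 685.9 to 1545 CPM, and that of complex I 767.2 to 2130 CPM and 986.3 to 1383 CPM. The sums of complex III were 297.3 to 937.7 CPM in IHCs and 288.7 to 500.5 CPM in OHCs, and those of complex II 163.7 to 354.1 CPM and 259.8 to 343.1 CPM. The range within each cell type was larger than the difference between the group medians. In IHC replicate 1, 58 of the 81 subunits lay above their own mean over the 12 libraries, in IHC replicate 6 only 18 did, and in OHC replicate 5 there were 62. The median deviation was 0.51 and -0.40 log2 units in these IHC libraries and 0.40 in this OHC library, and the other 9 lay between -0.24 and 0.28.

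Subunits with tissue-specific paralogs gave the clearest pattern of presence and absence, shared by both cell types. Levels per kilobase of exon are used for comparisons between genes. Cox6a1, Cox7b, Cox8a and Ndufa4, the widely expressed forms, were counted in every library. Their counterparts known from heart and skeletal muscle (Cox6a2, Cox8b), testis (Cox7b2, Cox8c) and low oxygen (Ndufa4l2) were at or near the floor. Cox6a2, Cox7b2 and Cox8c had 0 counts in all 12 libraries, which allows up to 3 counts in each, or 0.0647 to 0.196 CPM by library, a limit that covers counting error only. Cox8b had 5 counts in all, and Ndufa4l2 had 12 counts, all in IHC replicate 6. Of the exonic bases of Cox8b, 51.5% overlap Psmd13 on the opposite strand, and of those of Ndufa4l2, 63.3% overlap Shmt2. Reads there would count for neither gene if strand was not used, so these 2 low counts are uncertain to that extent. Cox7a1, the heart and muscle form of its family, had 182 counts in all, of which 166 (4.83 CPM) were in OHC replicate 4. In that library the skeletal muscle markers Acta1 and Ckm were at 0.09 CPM and 0, and the summed erythroid markers had their highest value, 3.20 CPM. Ndufb11b and a 2nd gene identifier of Atp5po had 0 counts in all libraries. The exonic bases of that identifier overlap the main Atp5po gene (45.85%) and Donson (54.15%) on the same strand. Its reads could hardly be assigned to it, so its 0 does not show absence.

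In the families with more than 1 form counted, the order of the forms was as follows. Cox4i1, the widespread form, was 30.2 ± 13.3 CPM per kb (SD, n = 6) in IHCs and 29.5 ± 7.19 CPM per kb (SD, n = 6) in OHCs, and Cox4i2, known from lung and low oxygen, was 4.52 ± 2.02 and 3.75 ± 1.51 CPM per kb. Cox4i2 made up 1.83% to 31.2% of the pair in IHCs and 5.43% to 23.6% in OHCs, overlapping ranges. Cox6b1 was 22.6 ± 10.3 CPM per kb (SD, n = 6) in IHCs and 14.7 ± 5.81 CPM per kb (SD, n = 6) in OHCs, and Cox6b2, known from testis, was 4.59 ± 4.64 and 0.899 ± 1.12 CPM per kb. Cox6b2 was 1.27 to 15.4 CPM in IHCs (median 3.49 CPM) and 0 to 2.77 CPM in OHCs (median 0.425 CPM). The groups overlapped, and the log2 fold change of -2.35 was the lowest of all tested respiratory chain genes and the least precise of those named here (SE 1.17, FDR = 0.249 by edgeR). Cox7a2 was 9.81 ± 3.96 CPM per kb (SD, n = 6) in IHCs, and Cox7a2l, which helps to join complexes III and IV, was 5.57 ± 2.06 CPM per kb. Their order depended on the gene model, since by the length of the longest protein-coding transcript Cox7a2l was the higher of the pair in both cell types. Their log2 fold changes were -0.26 (SE 0.31) and 0.23 (SE 0.28), neither of which was called.

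**Figure D4:**
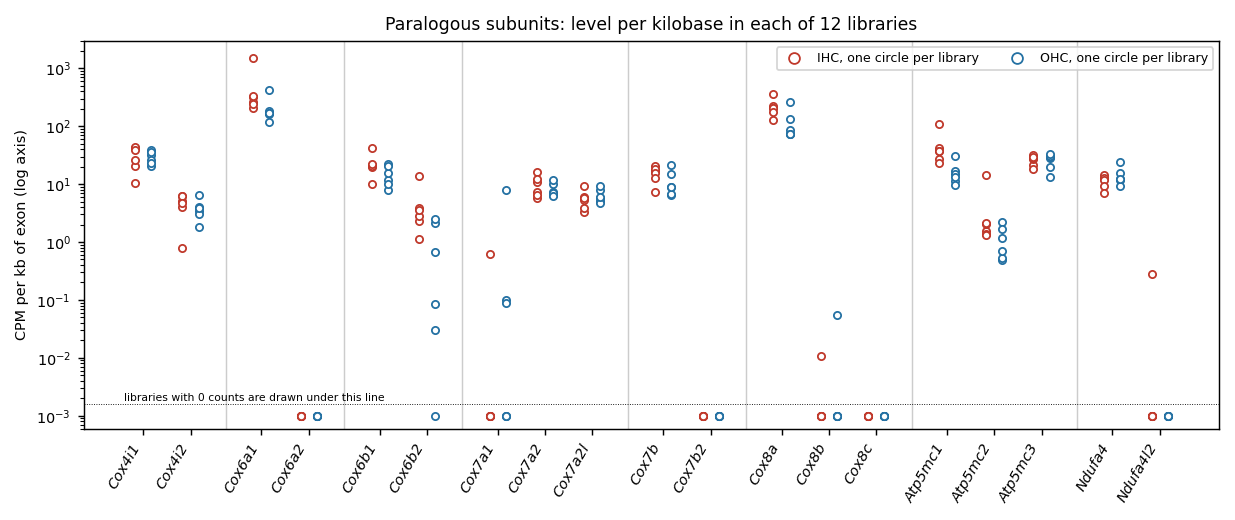
Level in CPM per kilobase of exon (log axis) of paralogous subunits, with 1 circle for each library (red IHC, blue OHC), and libraries with 0 counts drawn under the dotted line. Cox6a2, Cox7b2 and Cox8c have 0 counts in all 12 libraries, and Cox7a1 is high in OHC replicate 4 alone.

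The 3 genes for the c subunit of ATP synthase, which encode the same mature protein with different import sequences, had unlike fold changes, whose differences from each other were not tested. Atp5mc3 was 49.0 to 84.4 CPM in IHCs (median 73.1 CPM) and 34.4 to 87.5 CPM in OHCs (median 76.3 CPM), and the log2 fold change was -0.02 (SE 0.27, 95% confidence interval -0.58 to 0.54, FDR = 0.972 by edgeR). Its sign turned with library sizes free of ribosomal and mitochondrial counts (0.11). Atp5mc2 was 8.72 to 95.5 CPM in IHCs (median 11.8 CPM) and 3.26 to 14.5 CPM in OHCs (median 6.01 CPM). Its log2 fold change of -1.77 (SE 0.67, FDR = 0.124 by edgeR) became -0.60 without IHC replicate 1, and its whole coding sequence is repeated in 2 pseudogenes. Of the summed level per kilobase of the 3 genes, Atp5mc1 made up 44.0% to 75.6% in IHCs (median 55.1%) and 24.3% to 67.7% in OHCs (median 33.2%). OHC replicate 5 had the highest OHC share, and the ranges overlapped. The summed level was 76.4 ± 35.9 CPM per kb (SD, n = 6) in IHCs and 43.0 ± 5.47 CPM per kb (SD, n = 6) in OHCs. By the length of the longest transcript, Atp5mc3 and not Atp5mc1 was the highest form in IHCs.

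Fold changes were not spread evenly over subunits of different size and base composition. These classes were chosen after their values were seen, and genes are not independent replicates. The 38 structural subunits with coding sequences up to 450 bases had a median log2 fold change of -0.38, with 29 negative, and the 14 subunits above 900 bases had 0.15. For other genes of the same lengths the medians were 0.00 (592 genes) and -0.05 (8998 genes). Across the 81 subunits, Spearman's rho between coding length and log2 fold change was 0.33, beside -0.05 over 11803 protein-coding genes. By GC content, the 21 subunits up to 50% GC had a median of 0.31 and the 29 above 55% GC had -0.44, and other genes in these classes had 0.25 and -0.35. The relation with GC was thus shared with all genes (rho -0.50 for subunits, -0.29 for protein-coding genes). Without IHC replicate 1 these were -0.38 and -0.20, and the medians for short and long subunits were -0.21 and 0.25. The rho with coding length was then 0.25 for subunits and -0.08 for protein-coding genes. With offsets for GC the relation with length remained (rho 0.45, medians -0.47 and 0.09), while that with GC was -0.11. The points share the 12 libraries, and the part of fragment size, amplification and read mapping in this pattern was not tested.

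**Figure D5:**
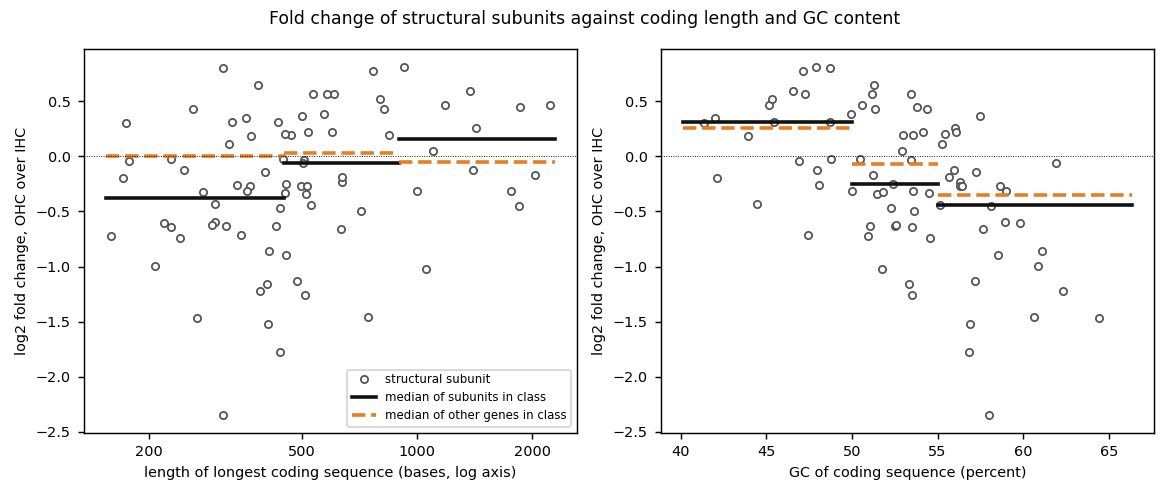
Log2 fold change (OHC over IHC) of 80 of the 81 structural subunits against the length (log axis) and the GC content of its coding sequence, with class medians of the subunits in black and of other genes dashed in orange. Short subunits lie lower than long ones, while other genes are level across lengths, and both fall with GC content.

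The subunits encoded by the mitochondrial genome itself had log2 fold changes on the IHC side. Of 13 genes, 11 were tested, and all 11 had negative values (median -0.82). The 3 complex I genes mt-Nd2, mt-Nd4 and mt-Nd5 were called, beside 6.26% of all genes tested. The level of mt-Nd4 was 2647 to 5668 CPM in IHCs (median 3558 CPM) and 1416 to 2575 CPM in OHCs (median 2291 CPM). The groups did not overlap, as for 4.6% of all genes tested, and the log2 fold change was -0.82 (SE 0.21, FDR = 0.0219 by edgeR). Those of mt-Nd2 and mt-Nd5 were -1.29 (SE 0.32, FDR = 0.0203 by edgeR) and -0.71 (SE 0.20, FDR = 0.0397 by edgeR). Without IHC replicate 1, the library with the largest mitochondrial share, the same 3 genes were called, 10 of 11 were negative, and the median was -0.61. With the GC offsets these values were larger: mt-Nd4 was at -1.91, mt-Nd2 at -2.58 and mt-Nd5 at -1.69, and the median was -1.91. In that fit 7 of the 11 genes were called, beside 6.62% of all genes in it. Without offsets, mt-Co1 was 5357 to 18980 CPM in IHCs and 6395 to 14015 CPM in OHCs. The log2 fold change of mt-Co1 was -0.14 (SE 0.26, FDR = 0.794 by edgeR), and with the GC offsets it was -0.99 (FDR = 0.0815 by edgeR). The genes mt-Nd4l, mt-Co2, mt-Co3 and mt-Atp6, which are among the 11 tested, did not exceed 29.0 CPM in any library. Reads aligned to more than 1 place are not in the counts, and copies of the mitochondrial genes elsewhere were not sought. The part of such reads in these low levels was not tested.

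Other genes of energy metabolism were counted for context. Over all genes tested, 6.26% were called and 4.6% had groups that did not overlap. Of 39 further assembly factors tested, Tmem70, which helps to build ATP synthase, was called and was higher in OHCs. It was 18.9 to 40.3 CPM in IHCs and 42.0 to 103.4 CPM in OHCs, without overlap, and the log2 fold change was 1.27 (SE 0.30, FDR = 0.0146 by edgeR). None of 12 regulators of mitochondrial biogenesis and none of 14 citric acid cycle genes was called, with medians of 0.04 and 0.23. Among 6 carriers and porins, Slc25a3, the mitochondrial phosphate carrier, was higher in OHCs (149.8 to 225.4 CPM in IHCs, 208.0 to 344.8 CPM in OHCs, log2 fold change 0.74, SE 0.20, FDR = 0.0286 by edgeR), with a slight overlap. Of 16 glycolysis genes, 3 were called. Hk1, the hexokinase that binds mitochondria, was higher in IHCs (27.2 to 81.0 CPM against 9.57 to 22.5 CPM, log2 fold change -1.63, SE 0.35, FDR = 0.00746 by edgeR), as was Gapdh (778.2 to 1564 CPM against 503.1 to 764.0 CPM, log2 fold change -0.82, SE 0.20, FDR = 0.0172 by edgeR). Ldhb, a lactate dehydrogenase subunit, was higher in OHCs (32.6 to 77.5 CPM in IHCs, 138.5 to 264.2 CPM in OHCs, log2 fold change 1.61, SE 0.27, FDR = 0.000907 by edgeR), and the groups of Hk1, Gapdh and Ldhb did not overlap. These 5 genes were also called without IHC replicate 1.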

How the data were processed

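The authors trimmed reads with Trimmomatic, aligned them to GRCm39 with STAR and deposited raw counts of reads per gene from HTSeq (intersection-nonempty mode, GENCODE vM27), with no normalization. Ribosomal RNA had been depleted and cDNA amplified from random hexamers. Tool versions and the strand setting are not given in the sources used here. Reads aligned to more than 1 place were 5.89% to 14.7% of all lines and are not in the gene counts.

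Symbols, biotypes and lengths came from GENCODE vM39 on GRCm39, which held 54749 of the 55416 gene identifiers. Members, gene lists and named genes were chosen with earlier results of these data known. In R 4.3.3, genes were kept with filterByExpr of edgeR 4.0.16 (minimum count 10, minimum total count 15), normalized by TMM and compared with glmQLFit and glmQLFTest. P-values were adjusted over all genes tested by the Benjamini-Hochberg method (threshold 0.05). Alternatives were RLE factors, library sizes without ribosomal and mitochondrial counts, 2 other filters, DESeq2 1.42.0, the exact test of edgeR, a replicate block, offsets for GC content of the coding sequence (added after the data were seen) and leaving out each library. The fit was tested on simulated counts. Named genes were those called, the 10 with the next smallest p, the paralog families, the highest and lowest per length in each complex, Cox5a, and genes whose groups did not overlap. Copies of coding sequences were sought with blastn 2.17.0 (at least 98% identity over at least 100 bases) and found for 16 genes, over the whole coding sequence for 7. Promoter windows are RefSeq's (GRCm38.p6), matched by symbol. The 6 replicates per group are pools of cells, and the facility that made each library is not labelled. Same-numbered IHC and OHC libraries did not deviate together (r from -0.03 to 0.02), so numbers were not taken to pair them. The values of 1 gene are not reported here.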

Additional observations from a re-analysis of the deposited data

Results flagged for a closer look

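Of 64 groups of 6 libraries checked for a single library far from the rest, 21 had one. The cutoff gives about 1 in 20 by chance for independent, normally distributed values. These groups share the same 12 libraries, and some hold counts in 1 library only, so that rate cannot be set against the number found. IHC replicate 1 stood above the other IHC libraries for 8 of the genes checked: Cox6a1 (1058 CPM, next 237.0 CPM), Atp5mc1 (670.9 CPM, next 258.0 CPM), Ndufc2 (288.8 CPM, next 49.1 CPM), Uqcrq (259.1 CPM, next 37.5 CPM), Uqcr10 (127.2 CPM, next 55.8 CPM), Atp5mc2 (95.5 CPM, next 14.1 CPM), Ndufs3 (85.03 CPM, next 34.4 CPM) and Ndufb2 (25.5 CPM, next 9.19 CPM). It was also far above them for genes outside the check, such as Uqcrc1 (200.7 CPM, next 56.0 CPM) and Ndufa2 (129.9 CPM, next 27.3 CPM). The same library had the largest shares of ribosomal and mitochondrial counts, and its levels rose with GC content (Spearman's rho 0.41 over the 81 structural subunits, 0.35 over protein-coding genes).

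OHC replicate 5 stood above the other OHC libraries for Cox6a1 (297.2 CPM, next 132.1 CPM), Cox8a (229.4 CPM, next 118.6 CPM), Atp5mc1 (185.5 CPM, next 101.0 CPM), Cox5a (36.4 CPM, next 23.9 CPM), Cox8b (0.133 CPM, next 0) and the summed structural subunits (7618 CPM, next 5763 CPM). Its levels fell with GC content among the subunits (rho -0.37), as did those of OHC replicate 4 (rho -0.36) and OHC replicate 6 (rho -0.30). They also fell with coding length (rho -0.37), whereas this rho was 0.15 to 0.38 in the other OHC libraries.

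Single libraries also stood apart for Atp5f1b in IHC replicate 2 (1408 CPM, next 1046 CPM), Sdhb in OHC replicate 6 (50.1 CPM, next 29.8 CPM), Cox6b2 in IHC replicate 4 (15.4 CPM, next 4.38 CPM), Ndufs7 in OHC replicate 2, which was the lowest (6.55 CPM, next 9.91 CPM), Cox7a1 in OHC replicate 4 (4.83 CPM, next 0.0610 CPM) and IHC replicate 5 (0.367 CPM, next 0), and Ndufa4l2 in IHC replicate 6 (0.327 CPM, next 0).

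Of the 19 pseudogenes left out, 13 had more than 3 counts in at least 1 library, led by Cox5b-ps (416 counts at most) and Ndufa12-ps (305 counts at most), listed by GENCODE vM39 as protein-coding and as a processed pseudogene, respectively.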

How the results depend on the processing

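The number of genes called higher in IHCs was 2 and ranged from 1 to 4 when each library was left out (4 without OHC replicate 5, which added Cox6a1 and Cox8a, and 1 without IHC replicate 4 or OHC replicate 1, 2, 4 or 6, which lost Ndufs7). It was 4 of 86 with DESeq2, which added Ndufa6 and Ndufa7 and called 17.3% of all genes (2929 of 16911), 3 with no filter, which added Cox6a1, and 1 (Atp5mc1) with library sizes free of ribosomal and mitochondrial counts and with GC offsets. The number called higher in OHCs was 0, was 1 (Atp5f1c) with those library sizes, and ranged from 0 to 2 when libraries were left out, with 2 without IHC replicate 2. The median of the structural subunits was -0.20, -0.25 to -0.03 over the 8 other settings, and -0.30 to 0.083 when libraries were left out, above 0 without IHC replicate 1 alone.

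A fit with the replicate number as a block called 2 genes higher in IHCs, Atp5mc1 and Cox8a, and 0 in OHCs, with Ndufs7 at -1.43 (FDR = 0.0691 by edgeR). The numbers are not stated to pair the libraries, and same-numbered libraries did not deviate together. In the fit with this block, the log2 fold change of Cox4i1 was 0.0605 and that of Ndufc2 was 0.40, both against the sign reported. With library sizes free of ribosomal and mitochondrial counts Cox4i1 was 0.11 and Atp5mc3 0.11, and with GC offsets Ndufa4 was -0.10 and Uqcrb -0.15. When libraries were left out, the sign turned for Cox4i1 (-0.23 to 0.092), Atp5mc3 (-0.11 to 0.11), Ndufc2 (-0.54 to 0.82), Ndufb2 (-0.81 to 0.12) and Sdhb (-0.00275 to 0.31). None of these was called in any of these fits, and the cause was not tested.

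By the length of the longest protein-coding transcript instead of all exons, the median level of the structural subunits was 21.8 CPM per kb instead of 11.3 CPM per kb. The log2 ratio of Cox7a2 over Cox7a2l turned from 0.82 to -0.38 in IHCs and from 0.33 to -0.87 in OHCs, and that of Atp5mc1 over Atp5mc3 in IHCs from 0.83 to -0.22.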
